A study of Mus musculus with 9 samples.

Results

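Classical dendritic cells fall into type 1 (cDC1), which cross-present antigen to CD8 T cells, and type 2 (cDC2). The genes described here are 7 that are commonly used to recognise cDC1 in the mouse: Clec9a, Xcr1, Batf3, Cadm1, Gcsam, Cd8a and Wdfy4. They were picked by symbol, by a rule that uses no measured value, although earlier results of these data were known when the set was drawn up, and all 7 were found among the 24054 genes of the deposited tables. The libraries were made not from cDC1 but from splenic CD11b+ cells of C57BL/6 mice, sorted as live, single, autofluorescence-, MHCII+ and CD11c+, and split by the fluorescent protein TOMATO (TOM).

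The 9 libraries form 3 groups of 3. Young TOM+ cDC2 and young TOM- DC2 came from mice at postnatal day 8, and adult TOM+ cDC2 from mice at 8 or 9 weeks of age. Every mouse carried the genotype Clec9a-Cre/Cre Rosa-tdTomato/tdTomato, so that both copies of Clec9a held Cre in all 9 libraries and no library came from a mouse with an intact locus. A cell turns TOM+ when it, or a cell it descends from, has expressed Cre from the Clec9a locus. TOM is therefore a record of past Clec9a expression, and cells that escape recombination stay TOM-. Spleens of young mice were pooled and CD11c+ cells were enriched before sorting, and TOM- cells of adult mice were not analysed here. The stated sort gate names CD11b and neither XCR1, CD8α nor CD24. Each library is a bulk population, in which fewer cells of a type and less RNA per cell cannot be told apart.

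Each member has a known place in cDC1 biology. Clec9a encodes DNGR-1, a lectin receptor that binds the actin exposed by dead cells and feeds their antigens into cross-presentation; its promoter is also active in the committed progenitors of cDCs, which is why it serves for fate mapping. Batf3 is a transcription factor needed for cDC1 development, acting with the interferon regulatory factor Irf8. Xcr1 is the receptor for the chemokine Xcl1 made by activated CD8 T cells and NK cells. Cadm1 is a nectin-like adhesion molecule that binds Crtam on activated lymphocytes. Wdfy4 is a BEACH-domain protein required for cross-presentation of cell-associated antigen. Cd8a encodes the CD8α chain, which resident cDC1 and T cells carry, and Gcsam encodes a signalling adaptor first described in germinal centre B cells.

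Total gene counts ran from 12783252 to 22809401 per library, with a median of 16128082. The levels of 10 cDC2 markers summed to 1972 to 2265 TPM (a transcript level scaled by transcript length and by library) in young TOM+ cDC2, 1820 to 2126 TPM in young TOM- DC2 and 2331 to 2687 TPM in adult TOM+ cDC2. Sirpa, the surface marker CD172a of cDC2, stood at 753, 688 and 470 TPM on average in the same order. Other markers of the list ran the other way with age. In young TOM+ against adult cells 4 of the 10 were called lower and 0 higher, beside 6.86% and 5.96% of all genes tested. They were Esam (log2FC -2.21), Clec4a4 (-1.49), Cd209a (-1.29) and Cd4 (-1.01). DESeq2 also called 4, and 9 of the 10 had an unadjusted p under 0.05, beside 7025 of all 14452 genes tested. Esam, which marks a subset of cDC2, averaged 19.0, 28.4 and 80.0 TPM. In young TOM- against adult cells 3 of the 10, all but Cd4 of those named, were called lower, beside 4.78% of all genes tested. These shifts accompany every age difference given here, and their part in it was not tested. No marker of that list was at 3 counts or fewer throughout a group. The list holds Itgam and Itgax, which encode the CD11b and CD11c that the cells were sorted on. No other sorted cell type stands beside its sum here, so the sum cannot test the sort label.

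Clec9a lies at chr6:129408862-129424764 (mm10, taken from the RefSeq table of GRCm38.p6), within a span that the annotation also gives to Clec12b. Xcr1 is at chr9:123852315-123862029, Batf3 at chr1:191098414-191108943, Cadm1 at chr9:47530170-47862280, Gcsam at chr16:45610440-45622867, Cd8a at chr6:71373427-71379171 and Wdfy4 at chr14:32959547-33193855. Cadm1 overlaps Gm10677 and Wdfy4 overlaps Lrrc18, so reads in those stretches cannot be assigned without strand, and the library kit kept none.

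RefSeq promoter windows matched 6 of the 7 members, Cadm1 being the one without an entry. The 250 bases before the start are shown for the locus that carries Cre (Clec9a), for the member with the highest mean level (Batf3) and for the member whose young groups did not overlap (Gcsam). Capitals mark GAGGAAG, letters that the myeloid factor PU.1 can bind, read on either strand.
Clec9a, chr6:129408612-129408861, plus strand: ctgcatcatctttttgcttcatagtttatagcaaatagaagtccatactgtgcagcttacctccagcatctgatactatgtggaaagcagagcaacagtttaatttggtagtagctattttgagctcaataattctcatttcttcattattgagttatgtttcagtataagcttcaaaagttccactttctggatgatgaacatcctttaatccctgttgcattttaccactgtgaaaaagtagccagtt
Batf3, chr1:191098164-191098413, plus strand: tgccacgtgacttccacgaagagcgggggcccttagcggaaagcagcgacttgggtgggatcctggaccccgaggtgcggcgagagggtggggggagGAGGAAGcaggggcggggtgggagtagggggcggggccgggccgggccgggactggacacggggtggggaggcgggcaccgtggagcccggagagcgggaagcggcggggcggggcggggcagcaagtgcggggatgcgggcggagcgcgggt
Gcsam, chr16:45610190-45610439, plus strand: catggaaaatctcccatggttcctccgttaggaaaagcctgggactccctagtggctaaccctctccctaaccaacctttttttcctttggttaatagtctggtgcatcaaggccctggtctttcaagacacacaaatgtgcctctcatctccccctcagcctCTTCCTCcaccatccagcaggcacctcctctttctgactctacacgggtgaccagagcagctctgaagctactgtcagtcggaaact
The window of Batf3 was 76.0% G and C, against 51.6% for Gcsam and 35.6% for Clec9a. GAGGAAG was found in 2 of the 6 member windows, those of Batf3 and Gcsam, and in 10.4% of the 27025 windows of that length in the table. TGANTCA, the letters of an AP-1 site that BATF factors can share, was in 0 of the 6 and in 6.87% of all windows. A motif of interferon regulatory factors, GAAA followed by any 2 bases and a second GAAA, was in 0 of the 6 and in 3.04% of all. The marked stretches overlapped no other motif searched, and these matches are descriptions of letters only.

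Clec9a itself was barely read. Across the 9 libraries 40 reads of 149295327 fell on the gene. Young TOM+ cDC2 had 5, 7 and 2 reads (0.12, 0.24 and 0.06 TPM), young TOM- DC2 had 4, 2 and 3 reads (0.12, 0.07 and 0.05 TPM), and adult TOM+ cDC2 had 11, 1 and 5 reads (0.34, 0.05 and 0.13 TPM). All 3 groups overlapped, and the adult group held both the highest and the lowest count. A call in the comparisons below needed a log2 fold change (log2FC, first group over second) beyond 1 in either direction and an adjusted p (padj) under 0.05 in edgeR's quasi-likelihood test, adjusted over the 14452 genes whose counts averaged 1 or more. For Clec9a, the log2FC of TOM+ over TOM- cells at day 8 was 0.58 (SE 0.87, padj = 0.94), with a 95% interval from -1.31 to 2.47. A difference of Clec9a RNA between the TOM+ and the TOM- population was thus not detectable at this depth. The same held for young TOM+ against adult TOM+ cells (log2FC -0.82, interval -2.58 to 0.94, padj = 0.45), and without adult replicate 1, which held 11 of the 17 adult reads, that value was 0.22. Young TOM- against adult TOM+ cells gave -1.40 (interval -3.25 to 0.46, padj = 0.222). Cre sits in both copies of the gene and is not among the annotated genes, and where in the gene the 40 reads lie was not examined, so they cannot be read as intact Clec9a transcript.

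On the per-length TPM scale, the 7 genes spread over more than 3 orders of magnitude within the same cells. Batf3 and Wdfy4 were highest, from 116 to 194 TPM in any library. Cadm1 followed at 6.24 to 21.2 TPM and Xcr1 at 2.43 to 3.79 TPM, while Cd8a, Gcsam and Clec9a stayed at or below 2.45 TPM. In each library Batf3 ranked between the 95.3rd and the 96.7th percentile of all genes and Clec9a between the 40.3rd and the 49.8th. Neighbours in this order did not always separate: Batf3 and Wdfy4 overlapped in both young groups but not in adults, where the Batf3 libraries lay above all Wdfy4 libraries. Cd8a and Gcsam overlapped in both young groups, and Xcr1 and Cd8a overlapped in adults. Gcsam and Clec9a overlapped in young TOM+ cDC2 and in adults.

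**Figure D1:**
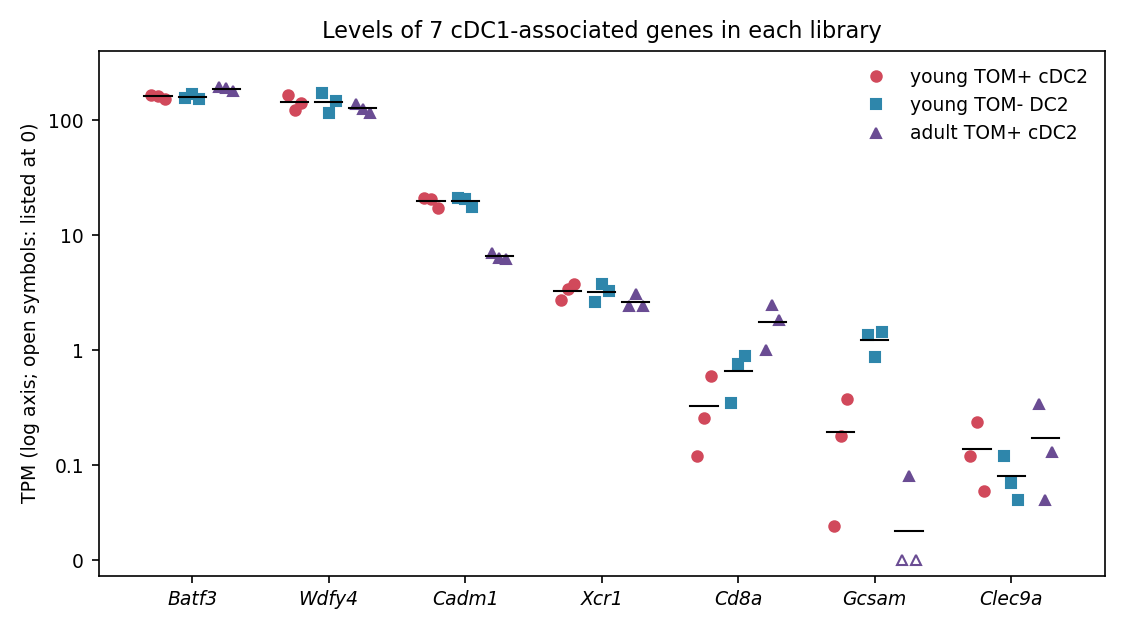
Level of each gene in each library, in TPM on a log axis, for young TOM+ cDC2 (circles), young TOM- DC2 (squares) and adult TOM+ cDC2 (triangles), 3 libraries a group; black lines are group means and open symbols are libraries listed at 0. Batf3 and Wdfy4 sit above 100 TPM in every library, Cadm1 is lower in the adult libraries, and Clec9a stays at or below 0.34 TPM.

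Batf3 and Wdfy4 were thus abundant in cells sorted as cDC2. Batf3 read 166, 162 and 153 TPM in young TOM+ cDC2, 155, 167 and 152 TPM in young TOM- DC2, and 194, 188 and 179 TPM in adult TOM+ cDC2. The adult libraries were all above the young ones, and the young groups overlapped. The size of that age difference was small: young TOM+ over adult TOM+ cells gave a log2FC of -0.36 (SE 0.088, padj = 0.00637) and young TOM- over adult TOM+ cells gave -0.40 (SE 0.088, padj = 0.00349). Both passed the adjusted p but not the fold. Of all genes tested, 40.6% and 36.3% passed the adjusted p in those comparisons, whatever their fold. Between the young populations Batf3 differed by 0.05 (interval -0.15 to 0.24, padj = 0.955).

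Wdfy4 read 166, 123 and 139 TPM in young TOM+ cDC2, 170, 116 and 146 TPM in young TOM- DC2, and 138, 125 and 116 TPM in adult TOM+ cDC2. These values overlapped in all groups. The intervals of its log2FC ran from -0.25 to 0.29 between the young populations, from -0.23 to 0.31 for young TOM+ over adult TOM+ cells and from -0.26 to 0.29 for young TOM- over adult TOM+ cells, and the padj values were 0.991, 0.842 and 0.934. A change of 1 on the log2 scale lies outside each of them.

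Xcr1 was detected in every library at 82 to 208 reads. Its level was 2.72, 3.40 and 3.79 TPM in young TOM+ cDC2, 2.61, 3.75 and 3.28 TPM in young TOM- DC2, and 2.44, 3.06 and 2.43 TPM in adult TOM+ cDC2. No group separated from another. The log2FC was 0.06 (interval -0.39 to 0.51, padj = 0.978) between the young populations, 0.24 (interval -0.22 to 0.71, padj = 0.387) for young TOM+ over adult TOM+ cells and 0.18 (interval -0.28 to 0.65, padj = 0.533) for young TOM- over adult TOM+ cells, so a change of 1 on the log2 scale lies outside the interval here too.

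Of the 7 genes, none was called between young TOM+ cDC2 and young TOM- DC2 in edgeR's quasi-likelihood test, where 1.18% of all genes tested were called (0.0208% higher and 1.16% lower in TOM+ cells) and 1.6% passed the adjusted p alone. Only 1 of the 7, Gcsam, had an unadjusted p under 0.05, the DESeq2 Wald test called that gene, and limma called 0. The median log2FC of the 7 genes was 0.04, beside 0.0013 over all genes tested.

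Gcsam was the member whose young groups did not overlap. Its reads numbered 1, 6 and 15 in young TOM+ cDC2 (0.03, 0.18 and 0.38 TPM), 38, 26 and 66 in young TOM- DC2 (1.36, 0.87 and 1.43 TPM), and 0, 2 and 0 in adult TOM+ cDC2 (0, 0.08 and 0 TPM). Every TOM- library was above every other library. Groups did not overlap between the young populations for 1 of the 7 genes, beside 16.6% of all genes tested (in normalised counts). In young cells the log2FC of TOM+ over TOM- was -2.55 (SE 0.64, interval -3.95 to -1.16, padj = 0.084), which did not pass the adjusted p. With the library number that the young populations share taken as a block, it was -2.64 with padj = 0.0219, and the DESeq2 Wald test gave -2.57 with padj = 0.0173. Without a filter on low counts the same fit gave -2.55 with padj = 0.0315. Over all 20 other settings, the left-out libraries included, its padj ranged from 0.00417 to 0.338.

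Against adult cells, Gcsam in young TOM- DC2 was called higher (padj = 0.000877). Its mean there was 9.60-fold a floor of 3 counts in each adult library, a ratio that leaves out the spread between libraries. Young TOM+ over adult TOM+ cells was not called (log2FC 2.72, interval 0.25 to 5.18, padj = 0.0748), and those groups overlapped. That comparison was called without young TOM+ replicate 1 (log2FC 3.25, padj = 0.015) and without adult replicate 2 (log2FC 5.77, padj = 0.0423).

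Markers of other cell types were read beside Gcsam. Between the young populations 1.18% of all genes tested were called, and groups did not overlap for 16.6%. Groups did not overlap for 4 of 9 T cell, 4 of 5 B cell and 4 of 6 macrophage and monocyte markers, all lower in TOM+ cells. Of NK cell markers, Ncr1, Klrb1c and Nkg7 had at most 3 reads in every young TOM+ library. In young TOM- libraries Ncr1 had 0 to 4 reads, Klrb1c 3 to 5 and Nkg7 1 to 19. None of these 3 was called between the young populations (padj = 0.837, 0.79 and 0.296), but the Nkg7 groups did not overlap. Eomes had at most 2 reads in any library. The 9 T cell markers summed to 28.1 to 29.2, 44.0 to 48.6 and 22.6 to 32.6 TPM in the order young TOM+, young TOM- and adult, with Cd247, the CD3ζ signalling chain, as the 1 of 9 called lower in TOM+ cells (means 0.30, 6.63 and 0.18 TPM). Cd3d, Cd3e and Cd3g were not called (padj = 0.994, 0.983 and 0.864). The 6 B cell markers summed to 61.0 to 70.7, 70.0 to 80.8 and 41.1 to 54.0 TPM, overlapping between the young populations, with Ms4a1, which encodes CD20, as the 1 of 5 called, also lower in TOM+ cells. Pax5, which defines B cells, had at most 1 read in any library. Macrophage and monocyte markers summed to 259 to 292, 321 to 355 and 209 to 263 TPM, with 0 of 6 called between the young populations by edgeR or by DESeq2 and 3 at an unadjusted p under 0.05. Each of these 3 sums was mostly 1 gene, given here as means in the same order of groups. Cd5 made most of the T cell sum (25.2, 35.3 and 26.3 TPM) and Cd79b most of the B cell sum (62.1, 64.7 and 30.6 TPM). Adgre1 made most of the macrophage and monocyte sum (188, 207 and 173 TPM). The part of T cells, B cells, NK cells, macrophages or monocytes in the Gcsam values was not tested.

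The age comparisons gave more calls. Cadm1 and Cd8a were called between young TOM+ and adult TOM+ cDC2, 1 in each direction, where 12.8% of all genes tested were called (5.96% higher and 6.86% lower in young cells). Cadm1, Gcsam and Cd8a were called between young TOM- DC2 and adult TOM+ cDC2, 2 higher and 1 lower in young cells, where 11.3% of all genes were called (6.5% higher and 4.78% lower). Groups did not overlap for 3 of the 7 genes in the first comparison and for 4 of the 7 in the second, beside 51.1% and 47.6% of all genes tested. The medians of the 7 log2FC values were 0.04 and 0.02, beside 0.05 and 0.07 over all genes. These comparisons share the adult libraries.

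**Figure D2:**
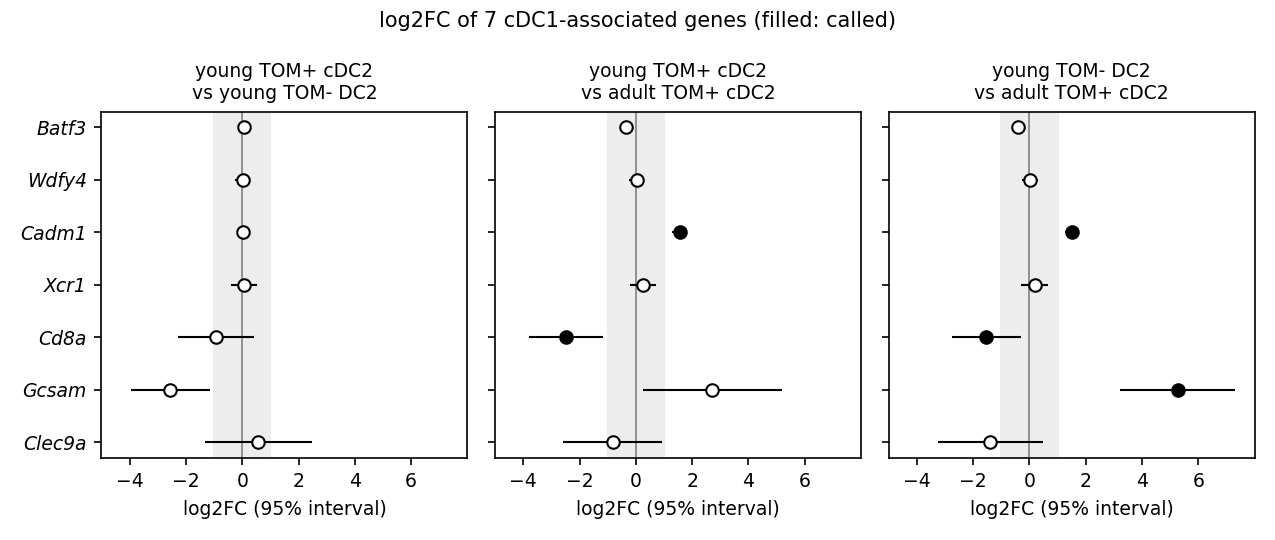
Fitted log2FC of the 7 genes with its 95% interval (horizontal lines) in each comparison, where positive values are higher in the group named first; filled points were called, open points were not, and the grey band spans a log2FC of -1 to 1. Cadm1 lies right of the band in both age comparisons at 1.56 and 1.52, and the fitted Gcsam values involve adult libraries at 0 to 2 reads.

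Cadm1 fell with age. Its level was 21.2, 20.5 and 17.2 TPM in young TOM+ cDC2, 21.0, 20.5 and 17.4 TPM in young TOM- DC2, and 7.02, 6.37 and 6.24 TPM in adult TOM+ cDC2. Every adult library was below every young library, and the young groups overlapped almost completely. Young TOM+ cells held 2.94-fold more than adult cells (log2FC 1.56, SE 0.12, padj = 1.43e-06) and young TOM- cells 2.86-fold more (log2FC 1.52, SE 0.12, padj = 2.47e-06). Between the young populations the log2FC was 0.04 (interval -0.20 to 0.28, padj = 0.971). RSEM, which divides ambiguous reads, assigned 1.13 to 1.26 times the STAR count to Cadm1, and the overlapping Gm10677 is not distinguished without strand. The call held in each of the other settings tried, with log2FC between 1.39 and 1.62 over both age comparisons.

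Cd8a ran the other way. Its reads numbered 3, 8 and 24 in young TOM+ cDC2 (0.12, 0.26 and 0.60 TPM), 8, 23 and 36 in young TOM- DC2 (0.35, 0.76 and 0.89 TPM), and 21, 57 and 54 in adult TOM+ cDC2 (1.00, 2.45 and 1.83 TPM). All adult libraries were above all young ones on the TPM scale, and the young groups overlapped. Adult TOM+ cells held 5.54-fold more than young TOM+ cells (log2FC -2.47, SE 0.60, padj = 0.0059), a call that held in each of the other settings tried. Adult TOM+ cells held 2.90-fold more than young TOM- cells (log2FC -1.53, SE 0.56, padj = 0.0496), just under the threshold. Leaving out any of the 3 young TOM- libraries, adult replicate 2, adult replicate 3 or young TOM+ replicate 2 ended this second call, with padj from 0.0582 to 0.186. Between the young populations the log2FC was -0.94 (interval -2.30 to 0.43, padj = 0.758).

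T cell markers were read beside Cd8a. Cd8b1, the CD8β chain of cytotoxic T cells, had 1, 3 and 0 reads in young TOM+ cDC2, 3, 9 and 14 in young TOM- DC2 and 7, 12 and 7 in adult TOM+ cDC2. It was called lower in young TOM+ than in adult TOM+ cells (log2FC -3.14, interval -5 to -1.29, padj = 0.0109) and not in the other comparisons. The adult mean was 4.40-fold the floor of 3 counts per library. Cd3e and Cd3g, parts of the T cell receptor complex, had at most 2 reads in any adult library, while young TOM+ replicate 2 had 18 and 29 reads and young TOM- replicate 2 had 23 and 10. Cd3d had 5 to 10 reads in adult libraries. The summed T cell list overlapped between young TOM+ and adult cells, 28.1 to 29.2 against 22.6 to 32.6 TPM, and was higher without overlap in young TOM- DC2, at 44.0 to 48.6 TPM. Most of that sum was Cd5, which averaged 25.2, 35.3 and 26.3 TPM in young TOM+, young TOM- and adult cells, so the sum mainly follows Cd5. Opposite to Cd8a, 3 of the 9 (Cd247, Lck and Cd28) were called higher in young TOM- than in adult cells (padj = 4.46e-06, 0.0139 and 0.0301), and Cd28, at 0 reads in every adult library and 1 to 8 in young TOM+ libraries, was called higher in young TOM+ than in adult cells (padj = 0.0361). The 10 markers of pDC and non-canonical CD8+ DC summed to 128 to 142, 133 to 146 and 150 to 188 TPM in the order young TOM+, young TOM- and adult, with 0 of the 9 tested called in any comparison by edgeR, and with Klk1 at most at 1 read throughout and Ly6d at 3 reads or fewer in every adult library. At an unadjusted p under 0.05 there were 3, 3 and 5 of the 9 in the order of comparisons used here, and DESeq2 called 1 in young TOM- against adult cells. Most of the sum of that list was Bst2, at 81.7, 90.5 and 118 TPM on average in young TOM+, young TOM- and adult cells. The part of T cells, pDC or non-canonical CD8+ DC in the Cd8a values was not tested.

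**Figure D3:**
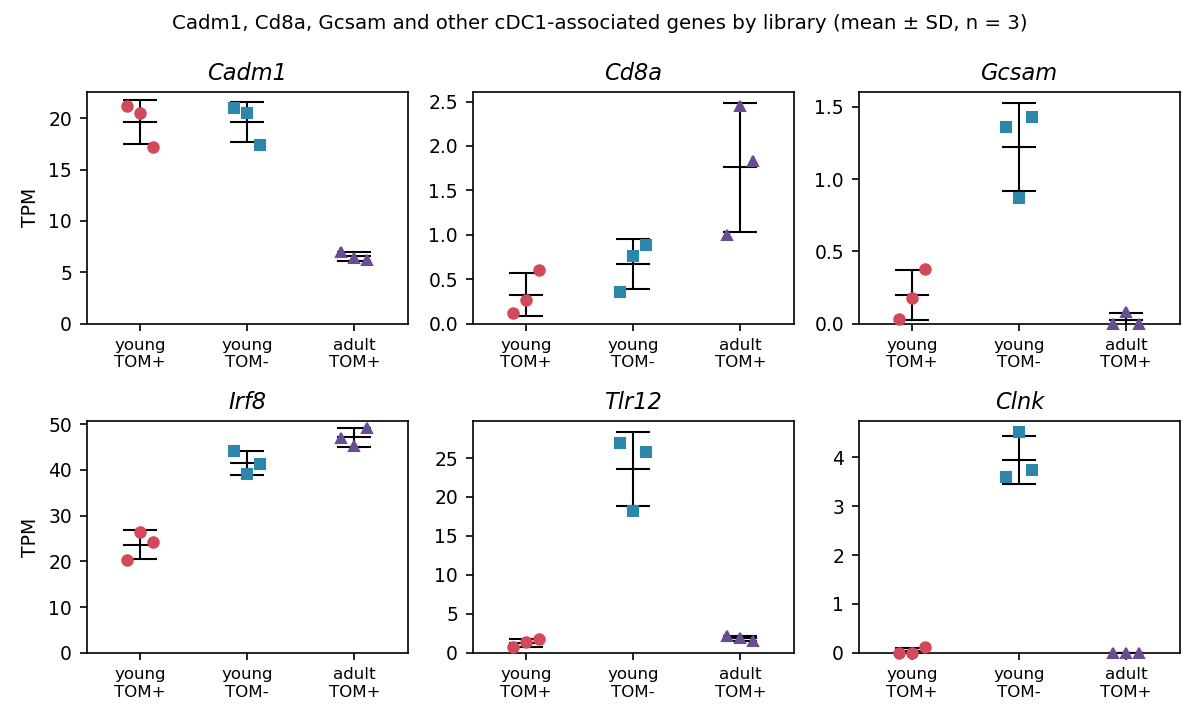
TPM of Cadm1, Cd8a, Gcsam, Irf8, Tlr12 and Clnk in each library of the 3 groups, with the mean and SD of 3 libraries as black bars and each axis starting at 0. Cadm1 is low and Cd8a high in the adult libraries, while Gcsam, Tlr12 and Clnk are high in the 3 young TOM- libraries, at 0.87 to 1.43, 18.2 to 26.9 and 3.59 to 4.51 TPM.

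Around the 7 members, 23 other cDC1-associated genes were read in the same fit. Their counts and those of the lists that follow stand beside shares over all genes tested of 0.0208% called higher and 1.16% lower between the young populations, 5.96% and 6.86% for young TOM+ against adult cells, and 6.5% and 4.78% for young TOM- against adult cells. Between the young populations 3 of the 23 were called, all lower in TOM+ cells, with a median log2FC of 0.03. In young TOM+ against adult TOM+ cells 3 were higher and 4 lower (median 0.13), and in young TOM- against adult TOM+ cells 4 were higher and 2 lower (median 0.10). The calls in both age comparisons thus went in both directions.

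The largest of these differences set young TOM- DC2 apart. Tlr12, an endosomal receptor for a protozoan profilin, read 0.72, 1.34 and 1.78 TPM in young TOM+ cDC2, 26.9, 18.2 and 25.7 TPM in young TOM- DC2, and 2.19, 1.90 and 1.53 TPM in adult TOM+ cDC2. The TOM- libraries were all above the rest. The log2FC of TOM+ over TOM- cells was -4.17 (SE 0.27, padj = 7.44e-06) and that of TOM- over adult TOM+ cells was 3.52 (SE 0.26, padj = 1.90e-06). Clnk, an adaptor of immunoreceptor signalling, had 1, 1 and 2 reads in young TOM+ cDC2, 49, 73 and 93 in young TOM- DC2 and 0 in each adult library. It was called in both comparisons (padj = 0.000108 and 8.83e-06). The mean of Clnk in TOM- cells was 24.3-fold and 16.3-fold the floor of 3 counts per library. Both genes, like Cd247 above, were highest in young TOM- DC2, and the part of other cells in these values was not tested.

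Ifi205, an interferon-inducible HIN-200 gene, was higher in young cells: 12.2, 19.1 and 12.7 TPM in young TOM+ cDC2, 7.95, 8.73 and 7.16 TPM in young TOM- DC2 and 1.47, 3.51 and 1.43 TPM in adult TOM+ cDC2. Both age comparisons called it, with log2FC 2.70 (SE 0.35, padj = 7.82e-05) and 1.78 (SE 0.36, padj = 0.00227). Gpr33, an orphan receptor, had 0 to 5 reads in any library. It was called lower in young TOM- than in adult cells at padj = 0.0485, and the call was lost on leaving out any of 7 of the 9 libraries. The young TOM- libraries were at or under the floor, and the adult mean was 1.49-fold that floor.

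Among 8 partners and relatives of Batf3, 0 were called between the young populations by edgeR or by DESeq2, with 1 at an unadjusted p under 0.05. In each age comparison 3 were called lower in young cells, with medians of -0.89 and -0.71. Irf8, the partner of Batf3 in cDC1, read 20.3, 26.5 and 24.2 TPM in young TOM+ cDC2, 44.2, 39.1 and 41.3 TPM in young TOM- DC2, and 47.1, 45.2 and 49.2 TPM in adult TOM+ cDC2. Young TOM+ cDC2 were the group with the lowest Irf8, and no library of theirs reached one of the other groups. Young TOM+ over adult TOM+ cells gave a log2FC of -1.10 (SE 0.11, padj = 1.40e-05), which was -0.97 without young TOM+ replicate 1 and so short of the fold. Young TOM+ over young TOM- cells gave -0.77 (padj = 0.00275), past the adjusted p but not the fold. Batf3, in contrast, overlapped between the young groups.

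Jdp2 and Jund, basic leucine zipper factors of the AP-1 group, were lower in young than in adult cells, with log2FC of -1.03 and -1.26 for young TOM+ cells and -1.02 and -1.12 for young TOM- cells (padj from 0.00741 to 0.0234). These sizes are close to the fold threshold. Leaving out 1 library at a time gave log2FC down to -0.76 and -0.996 for young TOM+ cells and to -0.75 and -0.83 for young TOM- cells, and ended the call for 2 or 3 of the 9 libraries each. Batf2 had 1 to 4 reads in young libraries and 11, 2 and 8 in adult ones. It was called between young TOM- and adult cells (padj = 0.0342), and lost the call without any of 4 libraries, with log2FC from -1.86 to -2.51. The adult mean was 3.24-fold the floor, with adult replicate 2 itself under the floor.

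The list around Clec9a held its lectin neighbours, 2 other genes of the cluster region and the kinase Syk that DNGR-1 signals through. Of 8 tested, 6 were called lower in young TOM+ than in adult TOM+ cells (median log2FC -1.31), beside 6.86% of all genes tested. In young TOM- against adult TOM+ cells 4 were called lower (median -1.31), beside 4.78%. Olr1 was just under the threshold in the first comparison (padj = 0.0499), with overlapping groups. DESeq2 called 6 and 5 in these comparisons. Limma called 3 and 2 with a pseudocount of 1, and 4 and 4 with 0.1. Olr1 and Gabarapl1 were called in the first comparison only, without a test of that difference, and Clec12a and Syk in neither, while 0 were called between the young populations by edgeR or by DESeq2, with 1 at an unadjusted p under 0.05. Clec12b, which overlaps Clec9a, had at most 1 read in any library and was not tested. Clec7a, the β-glucan receptor Dectin-1, read 200 to 274 TPM in young TOM+ cDC2, 203 to 302 TPM in young TOM- DC2 and 661 to 693 TPM in adults, a log2FC of -1.57 and -1.61 (padj = 2.44e-05 and 2.67e-05).

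Clec1b, the receptor CLEC-2, was at 0.53 to 0.78, 0.53 to 1.03 and 3.53 to 3.73 TPM in the same order, with log2FC -2.66 and -2.36 (padj = 0.000124 and 0.000309). Tmem52b and Clec1a followed at 0.21 to 0.93 and 0.34 to 0.63 TPM in young cells against 1.34 to 2.80 and 0.80 to 2.17 TPM in adults. Tmem52b lost its call between young TOM- and adult cells without adult replicate 3 (log2FC -1.18, padj = 0.0548). Clec9a was below each of these 4 in every group mean, but the 4 were named because they were called. Clec12b was lower still, at 0.02 TPM on average in young TOM+ cDC2 and 0 in the other groups. The age differences of Clec9a did not pass the test. Their intervals (-2.58 to 0.94 and -3.25 to 0.46) include the log2FC of Clec7a. The first does not include that of Clec1b in young TOM+ over adult cells (-2.66). Whether Clec9a differs from these neighbours was not tested.

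Beside Cadm1, 8 genes of the nectin-like and CD8 list were tested. Its relative Cadm3 moved opposite to it: 1.60 to 2.24 TPM in young TOM+ cDC2, 1.62 to 1.92 TPM in young TOM- DC2 and 4.33 to 7.69 TPM in adults, with log2FC -1.84 and -1.97 (padj = 1.73e-05 and 1.49e-05). Crtam, the Cadm1 ligand of activated T and NK cells, had 2, 9 and 3 reads in young TOM- DC2, 2, 0 and 0 in young TOM+ cDC2 and 0 in each adult library. Its call between young TOM- and adult cells (padj = 0.047, with a mean 1.14-fold the floor) was lost without any of 6 libraries. In that list 2 genes were called lower in young TOM+ than in adult cells, and 1 higher and 1 lower in young TOM- than in adult cells. Between the young populations edgeR and DESeq2 called 0 of the 8, with 3 at an unadjusted p under 0.05.

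On the chemokine side of Xcr1, 5 genes were tested, of which edgeR called 0 between the young populations, DESeq2 called 1 and 3 had an unadjusted p under 0.05. Ccr7, which guides mature DCs toward lymph nodes and T cell zones, read 287 to 322 TPM in young TOM+ cDC2, 365 to 504 TPM in young TOM- DC2 and 1493 to 2328 TPM in adults, with log2FC -2.66 and -2.23 (padj = 5.17e-07 and 2.21e-06). Ccr2, a receptor of monocyte and pre-DC traffic, was at 32.8 to 47.0 TPM in young TOM+ cells against 16.8 to 17.1 TPM in adults (log2FC 1.01, padj = 0.000813). The Ccr2 value dropped under the fold threshold without young TOM+ replicate 2 (0.79), young TOM- replicate 3 (0.99) or adult replicate 3 (0.97), and also with DESeq2 size factors or the DESeq2 Wald test (0.986), filterByExpr (0.981) or RSEM counts (0.993). Xcl1, the ligand of Xcr1, was at 0 in all young TOM+ libraries, at 1 to 12 reads in young TOM- libraries and at 1 to 4 reads in adult ones. Between the young populations edgeR gave a log2FC of -5.90 (padj = 0.14), which was not called.

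Of 11 BEACH-domain relatives of Wdfy4 and genes of cross-presentation trafficking, 0 were called between the young populations by edgeR and 1 by DESeq2, with 3 at an unadjusted p under 0.05. Lyst, the gene of Chediak-Higashi syndrome, was lower in young cells of both kinds, at 14.1 to 29.7, 16.4 to 27.4 and 33.1 to 39.7 TPM, with log2FC -1.03 and -1.02 (padj = 0.00312 and 0.00365). Each of these calls was lost without any of 3 libraries, with log2FC between -0.85 and -0.97. Nbea was called higher in young TOM- than in adult cells (log2FC 2.20, padj = 0.0236) at 38 to 59 against 4 to 11 reads, a call lost without any of 5 libraries.

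The genes whose levels ran most like each member over the 9 libraries were sought among 11288 genes with a mean of at least 1 TPM, by Pearson's r on log2(TPM + 1). The 9 points share 3 groups, so most of these values follow the group means. Cadm1 was closest to Tfg (r = 0.997), Psmb1 and Psmd14, the last pair being proteasome subunits. Gcsam was closest to Shisa2 (0.974), Aatk and Prdm16. Cd8a was closest to Gch1 (0.968), Nfkbid and Dgat1, and Batf3 to Sepw1 (0.987), Tmcc1 and Gpr162. Wdfy4 was closest to Zfp426 (0.966), Nup214 and Ankfy1. For Clec9a the closest were Snrnp48 (0.962), Cxx1c and Ewsr1, a pattern that rests on 1 to 11 reads per library.

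Xcr1 was closest to Hepacam2 (r = 0.985), then to Ccl9 (0.958) and Ppp2r3d (0.948). Hepacam2 was itself on the list of cDC1-associated genes, and it varied within groups as Xcr1 did. It read 7.75, 13.7 and 17.1 TPM in young TOM+ cDC2, 8.11, 15.9 and 13.3 TPM in young TOM- DC2, and 6.01, 11.5 and 5.57 TPM in adults. In each group the library with the highest Xcr1 also held the highest Hepacam2. In both young groups replicate 1 had the lowest Xcr1, the lowest Hepacam2 and the lowest Cd8a of its group. Both of these libraries carry the file number 81 and deviated from their group means together (r = 0.68 over 11062 genes), so they are not independent observations. Hepacam2 was also picked for its likeness to Xcr1 over these same libraries, so its match within groups is no separate support. Hepacam2 itself was not called by edgeR (padj = 0.983, 0.183 and 0.255 in the 3 comparisons).

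**Figure D4:**
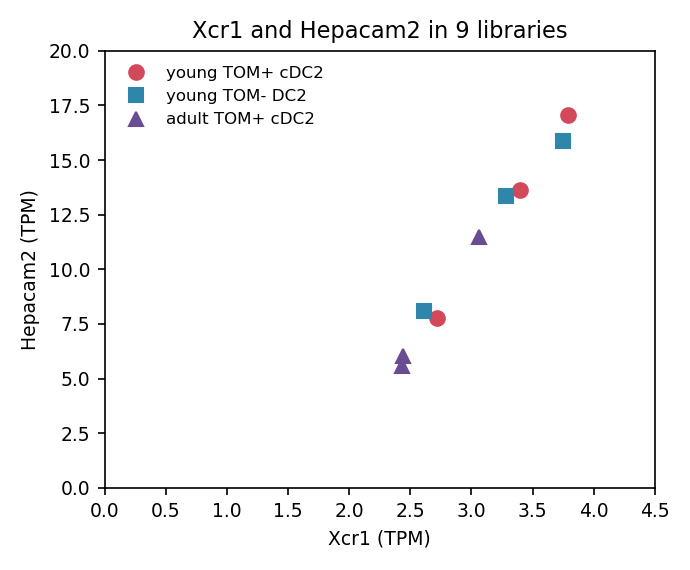
Hepacam2 against Xcr1, both in TPM, in the 9 libraries; circles are young TOM+ cDC2, squares young TOM- DC2 and triangles adult TOM+ cDC2. The points rise together from 2.43 and 5.57 TPM to 3.79 and 17.1 TPM, and libraries of each group are spread along the trend.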

How the data were processed

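RNA was isolated from sorted splenic cells, amplified with a kit that keeps no strand (SMART-seq v4) and sequenced as single 50-base reads. The authors aligned reads to mm10 with STAR and RSEM; their versions are not given in the sources used here. The deposited STAR counts per gene (column without strand) were the basis of all tests. The deposited RSEM tables hold expected counts, TPM and FPKM, made by the authors; TPM gave the levels, expected counts (rounded) an alternative, and FPKM was not used. Between 26.1% and 31.6% of reads fell on no gene and stayed out of library sizes.

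The 14452 genes whose counts averaged 1 or more were fitted with edgeR 4.0.16 (R 4.3.3), TMM scaling, 9 libraries in 3 groups, the quasi-likelihood test and Benjamini-Hochberg adjustment over all genes. Calls needed a log2FC beyond 1 and padj under 0.05, the thresholds of the study. Alternatives were DESeq2 1.42.0, limma 3.58.1 on log2(TPM + 1) or log2(TPM + 0.1), other scalings and filters, and each library left out. On simulated counts for young TOM+ cDC2 vs young TOM- DC2 (14242 genes, 200 changed by 2 on the log2 scale), edgeR recovered 99% with 4 false calls, DESeq2 98.5% with 5 and limma 96.5% with 1. The changed genes were drawn only from genes with higher average counts than Clec9a and Gcsam, so these shares do not cover genes read so rarely. Floors of 3 counts cover counting error only. Folds against a floor divide a group mean by 3 counts per library, so they leave out the spread between libraries and are no lower limit.

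Young libraries of both populations share numbers (81, 91, 92) in the deposited file names. Deviations from group means of same-numbered libraries correlated at 0.68, 0.40 and 0.46 over 11062 genes, and the other pairings at -0.49 to 0.18, so the number was used as a block in an alternative fit. Adult libraries 1, 2 and 3 carry 91, 92 and 95. The study calls its samples biological replicates, but the labels do not tie libraries to animals, so p-values measure the spread between these samples. The members and lists were chosen with earlier results of these data known. Of the lists, genes called in at least 1 comparison were named, at most 4 per list by the size of their log2FC (with no call, the gene of highest TPM, which no list needed), and 3 genes for likeness. Gene positions and promoter windows came from RefSeq tables of GRCm38.p6. The result of 1 marker list is not reported here.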

Additional observations from a re-analysis of the deposited data

How the results depend on the processing

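The number of the 7 genes called between the young populations was 0 in the main fit and 1 (Gcsam) under the DESeq2 Wald test, with no filter on low counts and with the replicate block, which changed no other call among them. Leaving out each library in turn, it stayed at 0, and the counts in the age comparisons lay between 2 and 3 for young TOM+ and for young TOM- cells. Adult replicates 1 and 2 carry the file numbers 91 and 92 too, but same-numbered young and adult libraries correlated at only -0.0267 to 0.13, so the samples share only a number there. A replicate block over all 9 libraries, chosen after seeing the data, called 1 of the 7 (Gcsam) between the young populations, with 274 genes in all against 170. It left the calls of the 7 in the age comparisons as they were, turned Wdfy4 to -0.1332 and -0.1573 there, and ended the calls of Jdp2 in both and of Gpr33, Batf2 and Crtam in young TOM- against adult cells. Other log2FC values near 0 changed sign. For Cadm1 between the young populations limma gave -0.0007 and -0.0008. For Wdfy4 between the young populations upper-quartile scaling gave -0.0038 and limma -0.0077 with either pseudocount. For Wdfy4 in young TOM- over adult cells DESeq2 size factors and the DESeq2 Wald test gave -0.0098, filterByExpr -0.0108, RSEM counts -0.0086 and only the groups compared -0.0021. With 1 library left out, ranges that crossed 0 between the young populations were -0.11 to 0.24 for Xcr1, -0.0366 to 0.13 for Cadm1 and -0.094 to 0.11 for Wdfy4. Those for Wdfy4 were -0.0429 to 0.12 in young TOM+ over adult cells and -0.0761 to 0.13 in young TOM- over adult cells, and that for Clec9a in young TOM+ over adult cells was -1.33 to 0.22. Limma on log2(TPM + 1) called 1122 and 986 genes in all in the age comparisons against 1853 and 1631, and limma on log2(TPM + 0.1) moved the median of all genes from 0.05 to 0.17 and from 0.07 to 0.22, with 57.4% and 70.3% of calls higher in young cells against 46.5% and 57.6%. The causes were not tested. Depth limits Clec9a, Gcsam and Cd8a, which rest on 40, 154 and 234 reads in all.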

Other observations

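Further genes of the cDC1-associated list were called and are given here, chosen after their values were seen. Ly75, the endocytic receptor DEC-205 of cDC1, followed Irf8: it averaged 3.64 TPM in young TOM+ cDC2, 9.34 TPM in young TOM- DC2 and 8.76 TPM in adult TOM+ cDC2. Young TOM+ cells were lower than young TOM- cells (log2FC -1.33, SE 0.19, padj = 0.00202) and lower than adult cells (log2FC -1.38, SE 0.19, padj = 0.000111). Cxcl9, an interferon-induced chemokine, was lower in both young groups, at 2.85 and 2.45 TPM against 12.6 TPM in adults (log2FC -2.28 and -2.53, padj = 3.26e-07 and 2.29e-07). Rab7b, listed in the files under an older symbol, averaged 8.84 and 8.79 TPM in the young groups against 1.86 TPM in adults (log2FC 2.16 and 2.13, padj = 0.00065 and 0.000854).

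Naaa, a lysosomal amidase often used to mark cDC1, averaged 70.6, 56.9 and 29.6 TPM in the same order of groups, and young TOM+ cells were higher than adult cells (log2FC 1.14, SE 0.14, padj = 4.40e-05). Nfil3, a factor upstream of Batf3 in cDC1 development, was lower in young TOM+ than in adult cells (log2FC -1.08, SE 0.17, padj = 0.000327), and -0.96 without young TOM+ replicate 1.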
